A study of Mus musculus with 19 samples.

Results

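The comparison described here sets TT2 mouse embryonic stem cells treated with pladienolide B (PlaB) against untreated TT2 cells in ordinary 2D culture. It holds 4 of the 19 libraries of the series, 2 control and 2 PlaB libraries, with every gene of the count table as a member. All cells were seeded for 48 h on mouse embryonic fibroblasts that had been inactivated so that they no longer divide (feeder cells). The PlaB group then received 20 nM PlaB for 6 h, and all 4 libraries are labelled 54 h. The control group carries the label "none" for treatment, with no solvent named. TT2 is 1 established line, and no label describes a genetic change in it. RNA from the whole culture was measured, so feeder RNA is part of every library. Of 54352 gene symbols in the table, 11183 had enough counts to be tested. Whether the replicates were separate cultures is not stated in the labels, and the spread behind each p-value may therefore be technical.

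PlaB is a small molecule that binds the SF3B1 subunit of SF3b, a part of the U2 small nuclear ribonucleoprotein (snRNP). SF3b holds the U2 snRNA on the branch site of an intron, the first commitment of that intron to removal. When this step is inhibited, introns stay in the RNA or exons are skipped, and many such transcripts are kept in the nucleus or degraded. A gene without introns does not need the step to make its mature RNA. In mouse embryonic stem cells, weaker splicing is known to be followed by expression of genes of the early cleavage-stage embryo. The values below are gene counts. They do not show splice junctions, so intron retention and exon skipping were not measured directly.

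The 4 libraries held 2515381 to 4118725 counts, the PlaB libraries being the smaller ones, and 19153 to 20826 symbols had at least 1 count. Genes encoded by the mitochondrial genome took 5.74% and 6.18% of the counts in control and 9.14% and 9.38% after PlaB. One model annotated as ribosomal RNA, CT010467.1, was singled out after its values were seen. It stood at 184 and 226 CPM in control and 2363 and 2088 CPM after PlaB. GC-rich genes were relatively higher in the PlaB libraries: the Spearman correlation across 11113 genes between GC content and log2 fold change was 0.43, a description with no test. Median log2 fold changes were -0.46, -0.06 and 0.71 in the terciles of genes with low, middle and high GC content. Values with the GC trend removed from each library ("GC-corrected") are therefore given for named genes whose call this changed and for list counts that it moved by over 1.5 times. What the GC trend, the library size and the RNA composition contributed to other results was not tested.

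PlaB changed a large part of the transcriptome. Of the 11183 tested genes, 51.7% differed between the groups: 2897 genes (25.9%) were higher and 2887 (25.8%) lower after PlaB at an adjusted p under 0.05 (edgeR quasi-likelihood test, Benjamini-Hochberg adjustment, as for all adjusted p-values of genes below). A change of at least 2-fold was found in 2005 of the higher genes (17.9% of all tested) and in 1730 of the lower ones (15.5%). The libraries of the groups did not overlap in 76.3% of tested genes. Counts of called genes in the lists below are to be read beside the shares of all tested genes, 25.9% higher and 25.8% lower. With the GC trend removed, 23.9% were higher and 22.4% lower, and 22 of the 5784 calls changed to the opposite call. The median log2 fold change of all tested genes was 0.00, which is set by the scaling: if PlaB lowered the amount of RNA per cell, these libraries cannot show it.

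Among genes with a mean of at least 50 CPM (a gene's counts relative to the TMM-scaled library total), the largest rise was that of Apoe, which encodes a lipid carrier protein. Apoe stood at 17 and 22.7 CPM in control and 343 and 276 CPM after PlaB, and its log2 fold change was 3.96 ± 0.18 (± SE here and below, adjusted p = 2.74e-19). Both PlaB libraries lay above both control libraries. Bsg, which encodes the chaperone basigin of lactate transporters, stood at 51.9 and 91.7 CPM in control and 880.1 and 784 CPM after PlaB (3.54 ± 0.20, adjusted p = 2.25e-10). The other large rises were those of Abt1 (log2 fold change 3.57), Itga5, the alpha chain of a fibronectin receptor (3.47), Tspo (3.32), Cenpm (3.30), Sf3b5 (3.30), the mitochondrial ribosomal protein gene Mrpl28 (3.27), Snrpn (3.25) and Ap2s1 (3.25).

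On the other side, Zfp808, a KRAB zinc finger gene, fell furthest, from 110.5 and 74.5 CPM in control to 9.83 and 7.4 CPM after PlaB (-3.43 ± 0.26, adjusted p = 2.17e-13). Hmga2, which encodes a chromatin protein, fell from 338 and 353 CPM to 49.1 and 32.5 CPM (-3.09 ± 0.17, adjusted p = 6.1e-17). Mat2a encodes the enzyme that makes S-adenosylmethionine, and its transcript is known to be controlled through retention of its last intron. Mat2a stood at 373 and 349.8 CPM in control and 49.5 and 44.4 CPM after PlaB (-2.94 ± 0.15, adjusted p = 2.63e-17). Libraries of the same group lay close together for Mat2a, and the groups were far apart. Tefm, an elongation factor of mitochondrial transcription, changed by -3.19, the RNA exosome cofactor Mphosph6 by -3.03, the noncoding RNA Platr4 by -2.79 and Gemin6, a subunit of the SMN complex that assembles snRNPs, by -2.75. Tmem60 (-2.72), Wisp1 (-2.71) and Ccdc18 (-2.68) complete the 10 largest falls. All 20 of these genes had the same call with the GC trend removed.

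**Figure D1:**
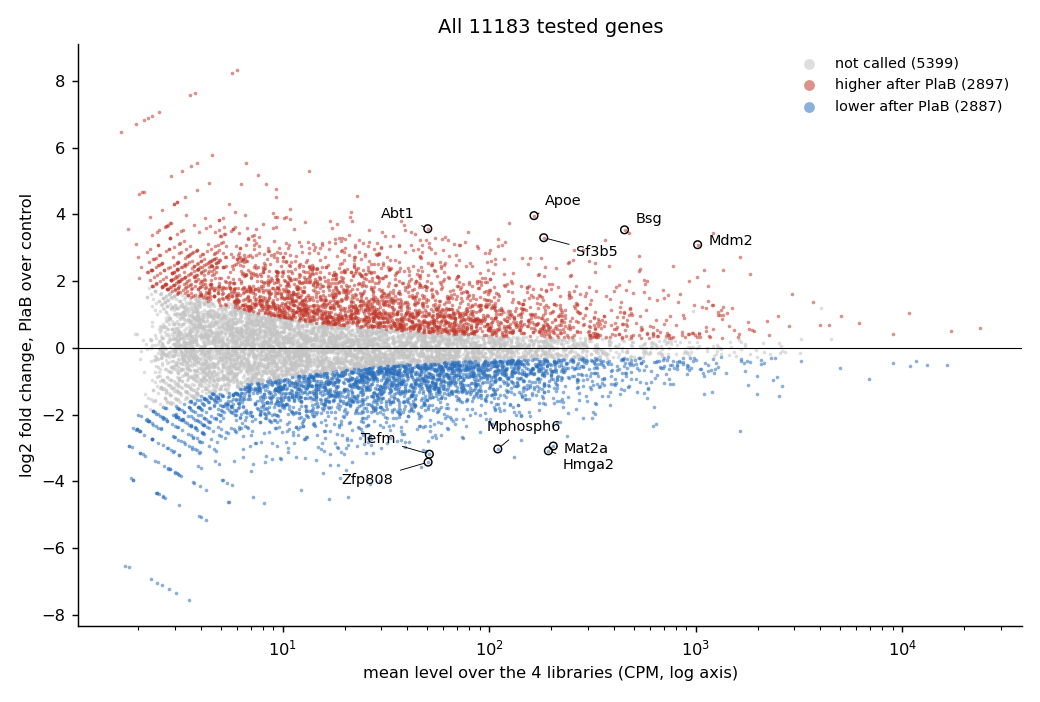
Log2 fold change (PlaB over control, y axis) of each of the 11183 tested genes against its mean level over the 4 libraries (CPM, log x axis). Red and blue points are the 2897 higher and 2887 lower genes, grey points were not called; named genes such as Apoe at 3.96 and Zfp808 at -3.43 stand at the edge of the cloud for their level.

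The table also counts reads in small gene models that lie wholly inside an intron of a protein-coding gene, and these give a view of intronic RNA. On the strand of the host gene, 1069 models annotated as unspliced or as sense-intronic (inside an intron on its strand) had at least 1 count. Some sense-intronic ones, such as Gm48357 and Gm43920, hold 1 intron themselves. Their summed level, tested or not, was 1511 and 1451 CPM in the control libraries and 2133 and 2484 CPM in the PlaB libraries. Both PlaB sums lay above both control sums, and the ratio of the group means was 1.56 (1.41 to 1.71 over the 4 pairs of libraries). Without the 10 models of highest mean level the ratio was 1.42. Models of the same kind on the strand opposite to the host had a ratio of 1.17 over 109 models (0.928 to 1.48), and of 0.962 without their 10 highest. Over models of all kinds inside introns the ratio was 1.45 on the host's strand and 1.79 on the opposite one. Processed pseudogenes had 1.31 and 1.23. Models of the remaining kinds, grouped as other, had 2.95 on the opposite strand, and 1.26 without their 10 highest. The strand setting of the counting is not known and the libraries do not mark strand. Reads of the opposite strand may be counted here too, so these ratios do not tell which strand the RNA came from.

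The unspliced or sense-intronic models on the host's strand can be set beside their hosts one by one. Of the 196 that passed the filter, 70 were higher and 18 lower after PlaB, and 106 and 8 with the GC trend removed. A model can pass through its PlaB libraries alone, so these counts and the median log2 fold change of 0.89 describe only the models that passed. The median was 0.39 without PlaB replicate 2 and 0.06 without the filter. The host genes of these models had a median log2 fold change of -0.40. Among the models that passed, the model was higher and its host lower in 24 cases, and the reverse held in 2. These counts carry the same limit.

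Gm43362 (chromosome 3, 158033940 to 158036409, GRCm38) lies in an intron of Srsf11, which encodes a splicing regulator of the SR family. It stood at 13.8 and 8.59 CPM in control and 94.2 and 88.8 CPM after PlaB (3.02 ± 0.23, adjusted p = 2.98e-13), and Srsf11 itself rose by 0.74. Gm45762, in an intron of Cnot1, the scaffold of the CCR4-NOT deadenylase, stood at 8.48 and 4.55 CPM in control and 43.4 and 39.2 CPM after PlaB (2.65 ± 0.30, adjusted p = 3.67e-09). Model and host moved apart at Dhx15, which encodes a helicase that takes spliceosomes apart. Gm43178, inside Dhx15 on chromosome 5 (52174370 to 52175755), went from 7.03 and 5.05 CPM to 27 and 31.8 CPM (2.28 ± 0.32, adjusted p = 3.14e-07), while Dhx15 fell from 439 and 343 CPM to 218 and 241 CPM (-0.77 ± 0.14, adjusted p = 1.58e-05). The same held for Gm44567 (2.99) in Lsm14a (-0.83). It held too for Gm45220 (1.58) and Gm45221 (1.35), both in Picalm (-0.47). Gm45223 (0.45) and Gm45222 (0.40), also inside Picalm, were not called. After GC correction Picalm (-0.04) was not called and Gm45223 (0.98) was called higher. Gm42929, in Cnn3, had 0 counts in both control libraries and 62 in the PlaB libraries together, while Cnn3 itself was at 0.02 (adjusted p = 0.928).

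**Figure D2:**
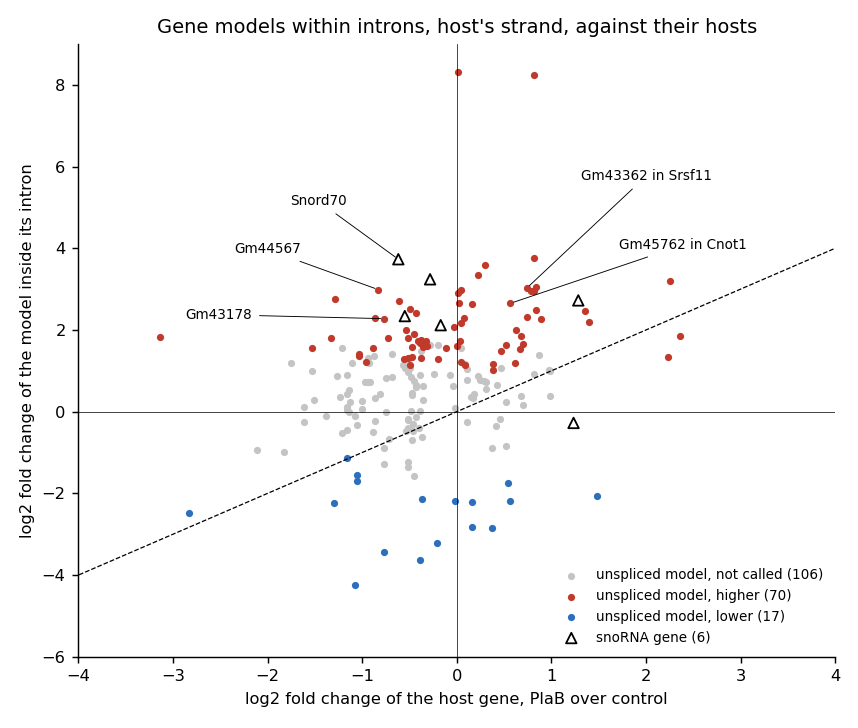
Log2 fold change (PlaB over control) of tested gene models inside introns (y axis) against that of their host genes (x axis), for models on the host's strand; the dashed line marks equal change. Red and blue dots are unspliced or sense-intronic models (named unspliced in the legend) that were higher or lower, and grey dots were not called. Triangles are small nucleolar RNA genes. Most dots lie above the line, as 158 of 193 models had a higher value than their host. A model can pass the filter through its PlaB libraries alone, so this count describes only the models that passed.

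Small nucleolar RNAs (snoRNAs) guide chemical modification of ribosomal RNA and are cut out of introns of their host genes. The snoRNA genes on the host's strand had a summed level of 46.8 and 32.3 CPM in control and 128 and 157 CPM after PlaB, over 102 genes with at least 1 count. The ratio of the group means was 3.60 (2.74 to 4.85 over pairs of libraries), and 3.58 without the 10 genes of highest mean level. The 48 detected snoRNA genes annotated on the strand opposite to the host had a ratio of 2.18 (at least 1.74 in each pair of libraries). Without their 10 highest it was 1.75, so the sums of genes annotated on either strand rose. The libraries do not mark strand, so the strand of this RNA is not known. Genes of so few counts can pass the filter through the PlaB libraries alone, so the calls describe only those that passed. Of the 6 that passed, 5 were higher: Snord17 (log2 fold change 2.34) in Snx5, Snord92 (3.24) in Wdr43, Snord8 (2.72) in Chd8, Snord72 (2.12) in Rpl37 and Snord70 in Nop58. Snord17 stood at 5.82 and 3.28 CPM in control and 21.7 and 24.8 CPM after PlaB (adjusted p = 1.92e-06), where its host Snx5 fell by 0.55 on the log2 scale. The host Nop58 was lower too (-0.62), Chd8 rose (1.28), and Wdr43 (-0.28) and Rpl37 (-0.17) were not called. After GC correction Snx5 (-0.28) and Nop58 (-0.13) were not called and Rpl37 (-0.75) was lower. Snord70 had 3 counts in control and 28 after PlaB, a ratio of 14.6 (95% exact counting interval 4.52 to 75.3). Libraries made from polyadenylated RNA do not capture a mature snoRNA well, so these counts may come from the intron around it, and intronic and mature RNA could not be told apart.

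The sequences of these 5 genes are shown because they mark the intronic stretches with the raised counts. All belong to the box C/D class, named after short boxes near the ends of the RNA. In capitals are the first TGATG, the core of box C, and the last CTGA after it, the letters of box D, on the RNA's strand, from the GENCODE M21 transcripts (GRCm38). Of all 1507 snoRNA transcripts of that release, 30.3% hold TGATG followed by CTGA.
Snord17: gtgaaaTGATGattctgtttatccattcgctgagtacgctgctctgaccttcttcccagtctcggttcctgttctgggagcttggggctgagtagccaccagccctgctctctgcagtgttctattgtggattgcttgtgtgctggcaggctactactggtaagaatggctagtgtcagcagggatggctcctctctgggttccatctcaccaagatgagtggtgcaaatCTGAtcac
Snord92: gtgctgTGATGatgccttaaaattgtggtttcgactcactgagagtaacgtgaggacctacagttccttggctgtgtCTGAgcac
Snord8: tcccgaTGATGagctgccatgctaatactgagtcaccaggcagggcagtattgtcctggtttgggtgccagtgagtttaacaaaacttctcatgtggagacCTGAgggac
Snord70: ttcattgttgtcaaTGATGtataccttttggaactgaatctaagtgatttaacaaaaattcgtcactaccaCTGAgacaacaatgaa
Snord72: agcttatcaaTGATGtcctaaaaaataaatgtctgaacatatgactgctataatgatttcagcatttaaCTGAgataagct

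Genes without introns stood apart from genes with many. Of 9922 tested protein-coding genes, 189 had no intron in any annotated transcript. Their median log2 fold change was 0.81, with 96 (50.8%) higher and 14 (7.41%) lower, against 25.9% and 25.8% of all tested genes. The median was 0.14 in 790 genes with 1 to 2 introns, 0.09 in 4624 genes with 3 to 9 and -0.17 in 4319 genes with 10 or more, of which 833 (19.3%) were higher and 1334 (30.9%) lower. Intronless genes had the highest median within each GC tercile as well: 0.44, 0.75 and 1.11 in the low, middle and high tercile, against -0.56, -0.20 and 0.48 in genes with 10 or more introns. After GC correction the medians were 0.52 and -0.14 over all GC contents. In the high tercile the corrected median of intronless genes (0.20) was below that of genes with 3 to 9 introns (0.26). The intronless genes that were counted include the mitochondrially encoded ones. The quartiles ran from -0.05 to 1.47 in intronless genes and from -0.77 to 0.52 in genes with 10 or more introns, so the classes overlapped widely. Over all tested genes, coding or not, and with the introns of the longest transcript counted, the medians were 0.36 without introns and -0.20 with 10 or more, a difference of 0.56.

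**Figure D3:**
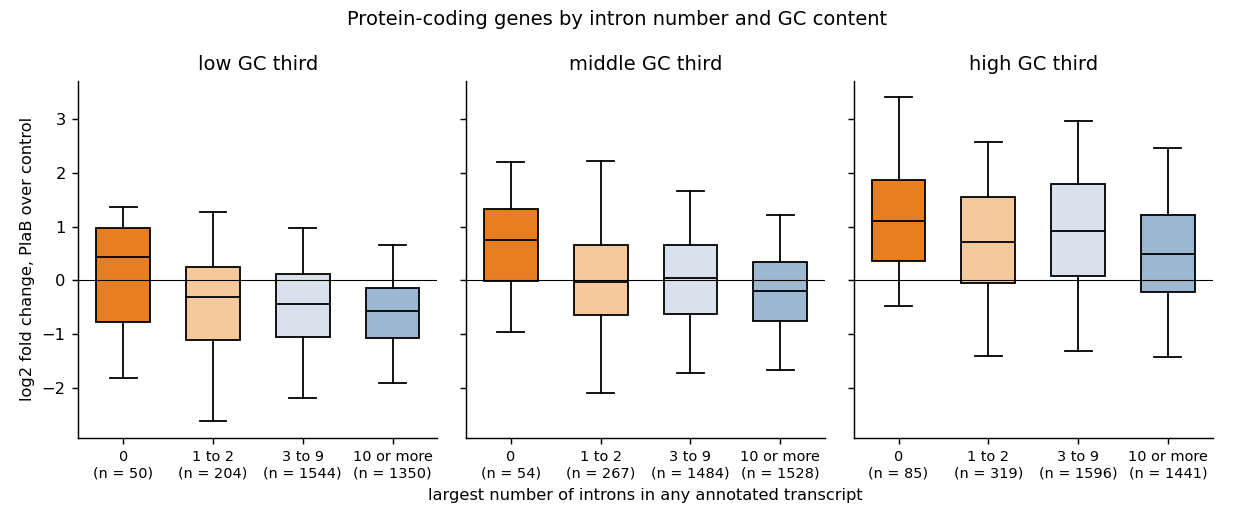
Log2 fold change (PlaB over control) of tested protein-coding genes by the largest number of introns in any annotated transcript, in 3 panels of low, middle and high GC content. Boxes span the quartiles with the median as a line and whiskers reach the 5th and 95th percentiles; genes with 0 introns have the highest median in each panel (0.44, 0.75 and 1.11).

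The length of the gene in the genome was ordered in the same way. In the shortest quintile of protein-coding genes (up to 9.09 kb) the median log2 fold change was 0.66, and in the following quintiles 0.16, -0.06, -0.30 and -0.31, the last holding genes of 75.9 kb and more. GC-corrected medians were 0.32, 0.06, -0.01, -0.18 and -0.19. Within the middle GC tercile the medians were 0.24, 0.01, -0.02, -0.18 and -0.28 from short to long, and within the high tercile 1.17, 0.89, 0.54, 0.21 and 0.14. In the low tercile they were -0.27, -0.53, -0.42, -0.60 and -0.49, without a steady order. Short genes also have few introns, and what each of these properties contributed was not tested.

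Genes paired by family or complex, of which 1 lacks introns, give a closer comparison. Both members were tested in 11 such pairs, and the intronless member had the higher log2 fold change in 6 (5 after GC correction), so no common direction was seen. Sf3b5 (3.30) and Sf3b6 (-0.65), which encode small subunits of SF3b, differed most. Fem1a stood at 2.61 and Fem1b at -0.95, and the polyadenylation factor genes Cstf2t and Cstf2 at 1.08 and -1.39. The poly(C)-binding protein genes Pcbp1 (1.06) and Pcbp2 (0.61) had GC-corrected values of -0.06 and 1.01, the opposite order. The call of Pcbp2 was lost without control replicate 2 (0.39) and without PlaB replicate 2 (0.52).

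The spliceosome's own genes moved in both directions, subunit by subunit. In the group of U2 snRNP and branch site factors, which holds the target of PlaB, 11 of 23 tested genes (47.8%) were higher and 4 (17.4%) lower, with a median log2 fold change of 0.30 (9 and 3 after GC correction). Without control replicate 2, 7 were higher. Sf3b5, an intronless gene on chromosome 10 (13005343 to 13009183), stood at 31.5 and 36.1 CPM in control and 393 and 274 CPM after PlaB (3.30 ± 0.17, adjusted p = 1.3e-16). Sf3b3, the large scaffold subunit, stood at 118 and 105 CPM in control and 339 and 322 CPM after PlaB (1.57 ± 0.14, adjusted p = 1.17e-11). Phf5a, whose product forms the PlaB pocket together with SF3B1, rose by 0.78 ± 0.13 (adjusted p = 6.47e-06). Sf3b1 itself stood at 544 and 531 CPM in control and 616 and 695 CPM after PlaB (0.29 ± 0.12, adjusted p = 0.0496), and its call was lost under 8 of the 11 alternatives that were run, among them leaving out PlaB replicate 2 (0.21), control replicate 1 (0.27) or control replicate 2 (0.24). Lower were U2surp (-0.86), Dhx15 (-0.77) and Sf3b6 (-0.65), and the calls of U2surp and Sf3b6 were lost after GC correction (-0.30 and -0.21).

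Sm and LSm proteins form rings around the snRNAs, and members were called in both directions. Of 15 tested genes, 4 were higher and 8 (53.3%) lower, and 5 were lower after GC correction. Snrpb, which encodes the core Sm protein B, stood at 36.1 and 58.6 CPM in control and 344 and 271 CPM after PlaB (adjusted p = 1.12e-11). Snrpn, a close relative of it, rose by 3.25 ± 0.21 (adjusted p = 8.14e-15), and Lsm4, part of both LSm rings, by 3.05 ± 0.20 (adjusted p = 3.05e-13). Lsm3, another subunit of those rings, fell from 201 and 163 CPM to 78.6 and 84.7 CPM (-1.16 ± 0.16, adjusted p = 1.08e-07). Lsm1, of the cytoplasmic ring, and Lsm8, of the nuclear one, fell by 1.37 and 0.94 on the log2 scale. Subunits of the same ring, Lsm4 and Lsm3, had transcripts that changed in opposite directions.

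In the U1 snRNP and its partners, which read the 5′ splice site, 3 of 11 were higher and 5 lower, and 2 and 2 after GC correction. Without control replicate 1, 3 were lower. Snrpc (3.24) and Snrpa (2.64), which encode the U1-specific proteins C and A, were higher, and the alternative splicing factors Prpf39 (-0.83) and Luc7l (-0.80) lower. Prpf39 stood at -0.27 after GC correction and was not called. Of 39 genes of the tri-snRNP and the catalytic spliceosome, 15 (38.5%) were higher and 7 (17.9%) lower. Prpf8, the protein at the catalytic centre, stood at 26.6 and 38.6 CPM in control and 113 and 84 CPM after PlaB (1.59 ± 0.20, adjusted p = 3.47e-08). Prpf31 (1.53) and the helicase gene Dhx8 (1.47) rose too, and Bud31 (-1.43), Cdc40 (-1.31) and Cdc5l (-0.83) fell. The minor spliceosome removes a rare class of introns and also uses SF3b. Of the 11 tested genes in its list 5 were lower, among them Snrnp48 (-1.51) and Zcrb1 (-1.06), and 1 was higher, Snrnp25 (1.34). The 5 also include Ints6 (-0.81, not called after GC correction), a gene of the Integrator complex and not of the minor spliceosome itself. After GC correction 5 were lower and 3 higher, and the median turned from 0.17 to -0.30.

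SR proteins bind exons and recruit the spliceosome, and they too split. Of 21 tested, 9 were higher and 7 lower, and 11 and 5 after GC correction. Srek1ip1, on chromosome 13 (104792484 to 104839274), fell from 61.5 and 49.8 CPM to 3.28 and 3.7 CPM (-3.98 ± 0.32, adjusted p = 8.84e-13). Srsf10, known as a splicing repressor in its dephosphorylated form, stood at 531 and 458 CPM in control and 169 and 145 CPM after PlaB (-1.66 ± 0.14, adjusted p = 2.42e-12). Srsf1, the best studied member, fell by 1.24 on the log2 scale. Srsf3 stood at 1295 and 1202 CPM in control and 1859 and 1756 CPM after PlaB (0.53 ± 0.12, adjusted p = 0.000301), and Srrm1 (0.98), Srsf5 (0.81) and Srsf11 (0.74) rose with it. Many of these genes carry poison exons or retained introns, whose inclusion is not visible in a gene count.

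The kinases that phosphorylate SR proteins did not share a direction, with 6 of 15 higher and 4 lower. Dyrk3 (1.91) and Clk4 (0.79) rose and Clk2 (-1.57) fell. After GC correction 5 were higher and 2 lower. Clk1 stood at -0.52 (adjusted p = 0.00225), and at 0.03 after GC correction, where it was not called. Of 33 hnRNP genes, which encode RNA-packaging proteins, 11 were higher and 9 lower, shares close to those of all genes. Without control replicate 2, 4 were higher, and after GC correction 4 were lower. Hnrnpc (0.56) and Ewsr1 (1.45) were higher and Hnrnpf (-0.96) lower.

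**Figure D4:**
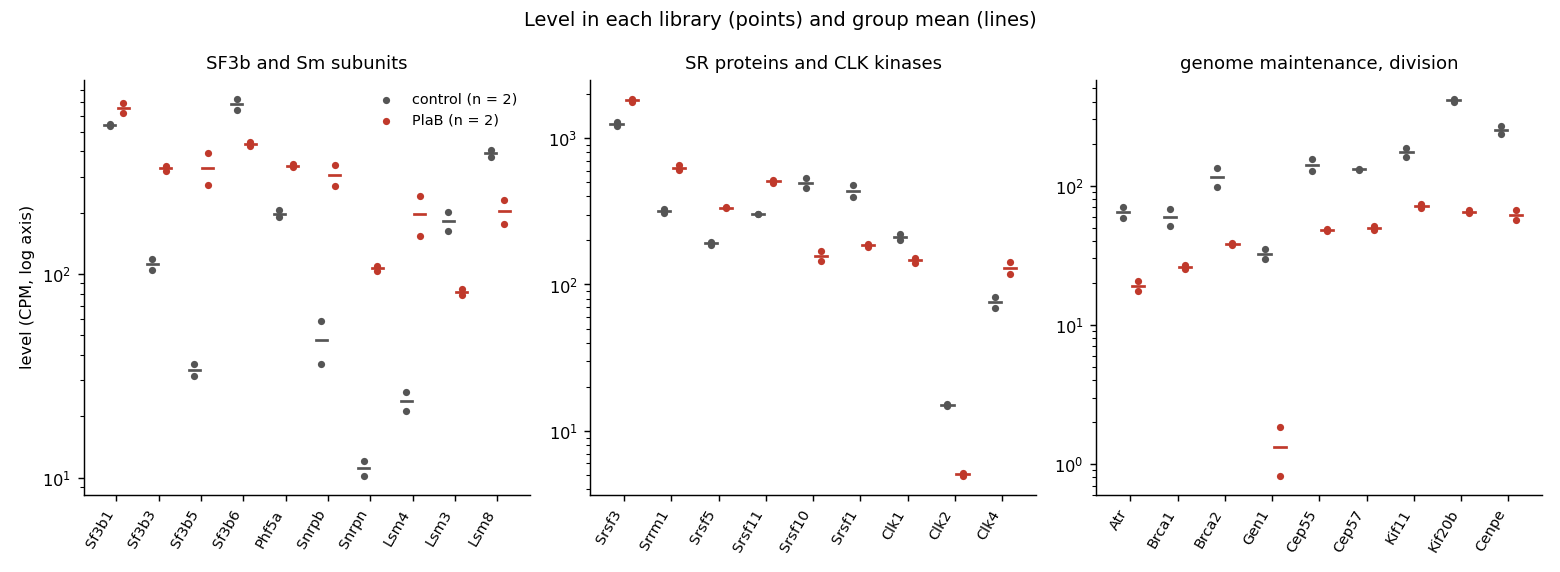
Level (CPM, log y axis) in each library of subunits of SF3b and the Sm and LSm rings, of SR proteins and CLK kinases, and of genes of genome maintenance and division; grey points are control and red points PlaB libraries (n = 2 each), lines are group means. Sf3b5, Snrpb, Snrpn and Lsm4 lie far above control after PlaB while Lsm3 and Lsm8 lie below it. All genes shown in the right panel lie below control, but they were chosen and leave out members that rose, such as Cenpm, Cenpa and Kif20a. Higher were 4 of 21 centromere, 3 of 27 kinesin, 2 of 37 recombination and Fanconi and 0 of 43 centrosome genes.

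Genes of steps that follow splicing were called in both directions, as were all tested genes (25.9% higher and 25.8% lower). In nonsense-mediated decay, which removes transcripts with early stop codons, and the exon junction complex, 7 of 21 were higher and 8 lower. The number higher was 3 without control replicate 1 and 4 without PlaB replicate 2. Eif4a3, the core of the junction complex, rose by 0.98 (GC-corrected 0.32, not called), and Upf3b (-1.08), Magohb (-1.07) and Pnrc2 (-1.30) fell. In mRNA export, 9 of 25 were higher and 8 lower, and 5 were lower without control replicate 2. Within the THO complex, which loads export factors on nascent RNA, Thoc1 fell from 215 and 216 CPM to 85.6 and 77.3 CPM (-1.41 ± 0.15, adjusted p = 7.45e-10) and Thoc2 by 1.20 on the log2 scale, whereas Thoc3 (1.81) and the adaptor gene Alyref (1.24) rose. In cleavage and polyadenylation, 7 of 21 were higher and 9 lower, with Wdr33 (1.32) and Clp1 (1.31) up and Cpsf7 (-2.38), Papolg (-2.34) and Cpsf6 (-1.21) down.

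RNA polymerase II and its elongation factors had 14 of 42 genes higher and 14 lower. Cdk7, the kinase of the initiation factor TFIIH, stood at 199.9 and 216 CPM in control and 54.1 and 55.8 CPM after PlaB (-1.92 ± 0.16, adjusted p = 1.62e-12). Polr2e and Polr2d, subunit genes, rose by 2.69 and 1.12, and the subunit gene Polr2k fell by 1.14 on the log2 scale. Among 22 snoRNA host genes, whose exons are often noncoding, 9 were higher and 7 lower. Snhg17 (2.33) and Zfas1 (1.48) rose, and Gas5 (-0.93) and Snhg5 (-1.08) fell. In these 5 groups of RNA processing genes the shares ran from 33.3% to 40.9% higher and from 31.8% to 42.9% lower, with no common direction. The shares of all tested genes were 25.9% and 25.8%.

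Transcripts of genome maintenance fell more often than they rose. In homologous recombination and the Fanconi pathway, which repair broken and cross-linked DNA, 18 of 37 tested genes (48.6%) were lower and 2 higher, with a median log2 fold change of -0.62 (17 and 2 after GC correction). Brca2, a gene of double-strand break repair, stood at 133 and 97.8 CPM in control and 38.9 and 37.7 CPM after PlaB (-1.59 ± 0.19, adjusted p = 6.13e-09). Gen1, a nuclease that cuts recombination intermediates, fell from 34.9 and 29.6 CPM to 0.819 and 1.85 CPM (-4.53 ± 0.43, adjusted p = 6.74e-11). Atr, the kinase that senses stalled replication, stood at 70.5 and 58.9 CPM in control and 20.5 and 17.4 CPM after PlaB (-1.77 ± 0.23, adjusted p = 3.38e-08), and Brca1 fell by 1.19 on the log2 scale. What gene length and intron number contributed to these falls was not tested.

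Centrosome proteins, which organise the mitotic spindle and cilia, were lower in 23 of 43 cases (53.5%) and higher in 0, with a median of -0.94. After GC correction 24 were lower and 3 higher. Cep57l1 (-2.51), Cep55 (-1.56) and Cep57 (-1.40) are examples, and Cep55, needed for the final cut between daughter cells, stood at 155 and 128 CPM in control and 48.7 and 47.3 CPM after PlaB (adjusted p = 1.21e-09). Kinesins, the motors that move along microtubules, had 13 of 27 lower and 3 higher. Kif20b, on chromosome 19 (34922361 to 34975745), fell from 422 and 401 CPM to 66.3 and 64 CPM (-2.66 ± 0.15, adjusted p = 8.02e-17), Kif23 by 1.38 and Kif11, the motor that pushes the spindle poles apart, by 1.28 on the log2 scale, while Kif20a rose by 1.27, a call that was lost without control replicate 1 (0.73).

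Centromere proteins had 9 of 21 lower and 4 higher. Cenpe, a large kinesin, stood at 268 and 236 CPM in control and 66.8 and 56.2 CPM after PlaB (-2.04 ± 0.16, adjusted p = 3.28e-13), and Cenpf fell by 1.59 on the log2 scale. Cenpm rose from 9.21 and 10.9 CPM to 119 and 79.5 CPM (3.30 ± 0.24, adjusted p = 6.67e-14), and Cenpa, the histone variant that marks the centromere, by 1.02. Replication-dependent histone genes have no introns in most cases and make RNA without a poly(A) tail. Of 14 tested, of 70 in the table, 7 were higher and 0 lower, Hist1h2bc rising from 53.1 and 55.3 CPM to 95.4 and 96.5 CPM (0.82 ± 0.17, adjusted p = 0.000117), and after GC correction 5 were higher and 1 lower. Leaving out control replicate 1 left 2 higher, control replicate 2 left 4 and PlaB replicate 1 left 3.

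Targets of p53, the factor that answers DNA damage and nucleolar stress, were higher more often than genes in general. Of 31 tested targets 18 (58.1%) were higher and 4 lower, with 18 and 3 after GC correction. Mdm2, the ligase that holds p53 down (chromosome 10, 117688875 to 117710758), stood at 199.9 and 229 CPM in control and 1799 and 1857 CPM after PlaB (3.09 ± 0.13). Plk2 (1.81) and Btg2 (2.23) rose as well. Cdkn1a, which encodes the cell cycle inhibitor p21, stood at 48.2 and 88.7 CPM in control and 228 and 244 CPM after PlaB (1.79 ± 0.20, adjusted p = 7.66e-07). Both PlaB libraries were above both control libraries, which lay further apart than the PlaB libraries did. Lower were Tigar (-0.81), Ercc5 (-1.09) and Eda2r (-0.62). Each of these 3 calls was lost without 1 library: Tigar without control replicate 2 (-0.69), Ercc5 without PlaB replicate 2 (-0.76) and Eda2r without control replicate 1 (-0.46). Without control replicate 1, 2 targets were lower. Eda2r stood at -0.12 after GC correction and was not called.

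A window at a RefSeq start of Cdkn1a is shown because a match to the pattern of the p53 response element was found in it. The window covers 250 bases before to 50 after that start, chr17:29090729-29091028, plus strand, GRCm38.p6. Whether it is the main start of the gene was not looked at. Capitals mark the match, bases 178 to 209 of the window, to 2 half-sites of 10 bases with 0 to 13 bases between them. The bases between the half-sites are in capitals too. The capitals follow the pattern alone, so the element that p53 uses may differ and may reach into the lower-case bases beside them. A half-site reads the same on both strands. The pattern of 2 half-sites was found in 24 of 32851 RefSeq windows of this length (0.0731%), and in 1 of the 28 p53 targets with a window. The match is a description, and binding was not measured.
Cdkn1a promoter: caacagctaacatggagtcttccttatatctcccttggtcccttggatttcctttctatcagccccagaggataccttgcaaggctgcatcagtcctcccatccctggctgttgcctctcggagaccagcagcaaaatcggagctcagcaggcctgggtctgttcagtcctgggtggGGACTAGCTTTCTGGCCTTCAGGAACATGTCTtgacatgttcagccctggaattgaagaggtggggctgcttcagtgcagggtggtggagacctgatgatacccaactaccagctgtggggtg

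Regulators of cell death at the mitochondria were called in both directions: of 14 tested members of the BCL2 family, of 22 in the table, 3 were higher and 3 lower, and 3 and 5 after GC correction. Mcl1, a short-lived survival protein whose splice form decides between survival and death, stood at 284 and 238 CPM in control and 139 and 134 CPM after PlaB (-0.94 ± 0.14, adjusted p = 9.49e-07), and Bnip3 fell by 1.03 on the log2 scale. Bad rose by 2.47. Bax stood at 1.41 (adjusted p = 0.000296), and at -0.20 after GC correction, where it was not called.

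Genes of the 2-cell embryo are held silent in stem cells by a set of chromatin regulators. Of 32 tested repressors 17 (53.1%) were lower and 7 higher, 12 and 5 after GC correction, and 11 and 4 without control replicate 1. Pcgf6, of a variant polycomb complex, stood at 70.3 and 59.1 CPM in control and 13.1 and 15.2 CPM after PlaB (-2.19 ± 0.24, adjusted p = 1.11e-09). Zmym2 (-1.96) and Morc3 (-1.53) fell, and Hdac1 (1.01), Chaf1b (2.05) and L3mbtl2 (1.82) rose. Of 26 tested genes of the 2-cell embryo, of 51 in the table, 11 were higher and 6 lower, and without control replicate 1 these numbers were 6 and 3. The number higher was also 6 without control replicate 2 and 7 without PlaB replicate 1. Gm12794 (2.52) and Tcstv1 (2.06) rose and Gm2016 (-2.62) fell. Zscan4c, whose promoter is used in reporters of the 2-cell state, stood at 33.4 and 24.5 CPM in control and 40.5 and 30.7 CPM after PlaB (0.29 ± 0.24, adjusted p = 0.312), and was called higher after GC correction (0.72). Zscan4d stood at -0.25 (adjusted p = 0.437), and at 0.18 after GC correction and 0.07 without control replicate 1, neither of them called. Several of these genes belong to multi-copy families, among which reads may be split.

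Among 37 pluripotency genes, 9 were higher and 15 lower. Of the core factors, Nanog (0.17, adjusted p = 0.324), Sox2 (-0.09, adjusted p = 0.67) and Klf4 (0.28, adjusted p = 0.133) were not called. The value of the core factor Pou5f1 is not given here. Of the 11 stem cell markers described below, which include these factors, 3 were higher and 4 lower. After GC correction Nanog was called higher (0.40) and Klf4 lower (-0.48). Jarid2, which guides polycomb complexes, stood at 389 and 316 CPM in control and 67.6 and 79.5 CPM after PlaB (-2.26 ± 0.15, adjusted p = 1.3e-14). Tdgf1, the Nodal co-receptor, stood at 874 and 839 CPM in control and 291 and 313 CPM after PlaB (-1.50 ± 0.13, adjusted p = 3.23e-12). Klf5 (-1.70) fell with them, and Prdm14 had 82 counts in control and 3 after PlaB, a ratio of 0.0574 (95% exact counting interval 0.0116 to 0.174). Gdf3 (1.73), Tcl1 (1.87) and Utf1 (2.86) rose.

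Targets of FGF and ERK signalling went both ways. Etv5 (-2.47) and Etv1 (-2.19), transcription factors induced by the pathway, and its inhibitor Spred1 (-1.51) fell, whereas Dusp6, a phosphatase that turns ERK off, stood at 75.8 and 69.2 CPM in control and 166 and 149.8 CPM after PlaB (1.12 ± 0.15, adjusted p = 1.63e-07), and Phlda1 rose by 2.45. In all, 8 of 19 were higher and 3 lower, but 5 and 4 after GC correction.

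Immediate early genes answer signals within minutes and are short with few introns. Of 28 tested, 18 (64.3%) were higher and 0 lower, with a median of 1.26, and 14 and 3 after GC correction. Gadd45g, a stress and growth arrest gene, stood at 4.6 and 5.3 CPM in control and 72.1 and 66.9 CPM after PlaB (3.80 ± 0.27, adjusted p = 4.44e-14). Cyr61, a secreted matrix protein gene, stood at 68.3 and 74.3 CPM in control and 418 and 458 CPM after PlaB (2.62 ± 0.14, adjusted p = 6.1e-17). Ier3 (2.15) and Myc (1.31) rose with them. Ier2, an intronless gene, had a log2 fold change of 1.83, and its call was lost without PlaB replicate 1 (0.58) and after GC correction (0.39). Jun stood at -0.65 (adjusted p = 0.17), and at -1.52 after GC correction, where it was called lower.

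The integrated stress response, the programme of the factor ATF4, had 15 of 26 genes (57.7%) higher and 4 lower, and 9 and 4 after GC correction. Without control replicate 2, 1 was lower. Atf4 stood at 70.8 and 82.6 CPM in control and 209 and 191 CPM after PlaB (1.38 ± 0.15, adjusted p = 1.38e-09). Phgdh, the first enzyme of serine synthesis, rose from 8.48 and 8.08 CPM to 50.8 and 59.9 CPM (2.74 ± 0.26), and Eif4ebp1, an inhibitor of translation, by 2.39. Cebpg, a partner of ATF4, fell by 2.18 on the log2 scale. Trib3, a classical target, had 40 counts in control and 3 after PlaB, a ratio of 0.118 (95% exact counting interval 0.0233 to 0.37). Aminoacyl-tRNA synthetases, of which many are ATF4 targets, had 13 of 23 higher and 5 lower (9 and 3 after GC correction, and 8 higher without control replicate 1), with Sars (2.00) and Kars (1.40) up and the accessory subunit Eef1e1 (-1.72) down.

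Chaperones and the unfolded protein response had 8 of 27 higher and 11 lower. The chaperone genes of the endoplasmic reticulum Calr (1.56) and Pdia6 (1.28), and the small heat shock protein gene Hspb1 (2.94) rose. Dnaja1, another chaperone gene, stood at 1009 and 922 CPM in control and 280.5 and 287 CPM after PlaB (-1.77 ± 0.13, adjusted p = 8.21e-14), Hsph1 fell by 1.53 and Hspa8 by 0.84 on the log2 scale. Targets of NRF2, the factor of oxidative stress, had 8 of 21 higher and 7 lower, and 6 and 4 after GC correction. Among the list's higher genes, Hmox1 rose from 11.2 and 12.6 CPM to 86.8 and 99.1 CPM (2.96 ± 0.22), Fth1 by 2.33 and Ftl1 by 2.54. Both subunit genes of the enzyme that makes glutathione's precursor fell, Gclc by 2.77 and Gclm by 1.68 on the log2 scale.

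In TNF and NF-kB signalling 6 of 19 were higher and 9 (47.4%) lower. Among inhibitors of the pathway, Nfkbia rose from 23.5 and 27.5 CPM to 145 and 134 CPM (2.45 ± 0.18, adjusted p = 1.32e-13) and Tnfaip3 by 2.75. Birc2 (-2.58), Xiap (-2.02) and Map3k1 (-2.77) fell. Xiap, an inhibitor of caspases, stood at 144 and 114 CPM in control and 33.6 and 30 CPM after PlaB, so the groups were well apart.

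Genes of energy metabolism rose more often than they fell. Of 24 glycolysis genes 15 (62.5%) were higher and 5 lower, with a median of 1.13, and 13 and 4 after GC correction. Gapdh stood at 371 and 496 CPM in control and 3222 and 2482 CPM after PlaB (2.72 ± 0.15, adjusted p = 1.07e-14). Ldhb rose by 1.88 and Eno1b, an intron-poor copy of an enolase gene, by 2.94. Hk2, which encodes a hexokinase, stood at 114 and 109 CPM in control and 40.1 and 47.3 CPM after PlaB (-1.34 ± 0.18, adjusted p = 5.95e-08), and the glucose transporter gene Slc2a1 fell by 0.78 on the log2 scale.

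Mitochondrial transcripts carry no introns and are made outside the nucleus, out of reach of the spliceosome. The table lists 37 such genes. Of the 13 that were tested, 12 were higher and 0 lower, and 13 and 0 after GC correction. mt-Nd5 stood at 2052 and 2096 CPM in control and 5414 and 5258 CPM after PlaB (1.36 ± 0.12, adjusted p = 6.17e-12) and mt-Cytb rose by 1.04. Nuclear genes of the respiratory chain had 37 of 79 (46.8%) higher and 9 lower, but 27 and 20 after GC correction. Ndufs7, of complex I, rose from 8 and 12.9 CPM to 98.3 and 85.1 CPM (3.13 ± 0.23), and Uqcrc1, of complex III, by 2.65. Mitochondrial ribosomal proteins had 34 of 77 (44.2%) higher and 12 lower, Mrpl28 standing at 17.2 and 24.2 CPM in control and 227 and 173 CPM after PlaB and Mrpl1 falling by 1.46 on the log2 scale.

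Cytosolic ribosomal protein genes are short, highly expressed and spliced. Of 88 tested, 33 (37.5%) were higher and 19 (21.6%) lower, and 28 and 25 after GC correction. Without control replicate 1, 10 were lower. Rplp0, of the ribosomal stalk, stood at 582 and 708 CPM in control and 3208 and 2790.0 CPM after PlaB (2.22 ± 0.13, adjusted p = 3.17e-16), and Rpl13 rose by 2.13. Rpl32 stood at 6369 and 5714 CPM in control and 3775 and 4125 CPM after PlaB (-0.61 ± 0.12, adjusted p = 4.5e-05), and Rps25 fell by 0.70. Many pseudogenes resemble ribosomal protein genes, so reads may be shared among copies. The proteasome had 19 of 43 (44.2%) higher and 8 lower, 5 being lower after GC correction, without control replicate 2 or without PlaB replicate 2, with Psmb6 (1.72) and Psmd8 (1.66) up and the ATPase subunit gene Psmc6 (-1.01) down.

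KRAB zinc finger genes bind and silence transposable elements, and their transcripts are known to be short-lived. Of 51 tested genes of the series Zfp900 to Zfp999, of 64 in the table, 36 (70.6%) were lower and 2 higher, with a median of -1.15, and 24 and 6 after GC correction (median -0.62). Zfp979 stood at 1220.0 and 910.1 CPM in control and 226 and 215 CPM after PlaB (-2.27 ± 0.14, adjusted p = 1.24e-15), and Zfp980 fell by 2.67 on the log2 scale. The 2 higher ones were Zfp948 (1.31) and Zfp958 (1.03). Of the other 214 tested Zfp genes, 73 (34.1%) were lower and 39 (18.2%) higher, and 48 were lower without control replicate 1. These families hold near-identical copies, so reads may have been split among them or discarded.

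**Figure D5:**
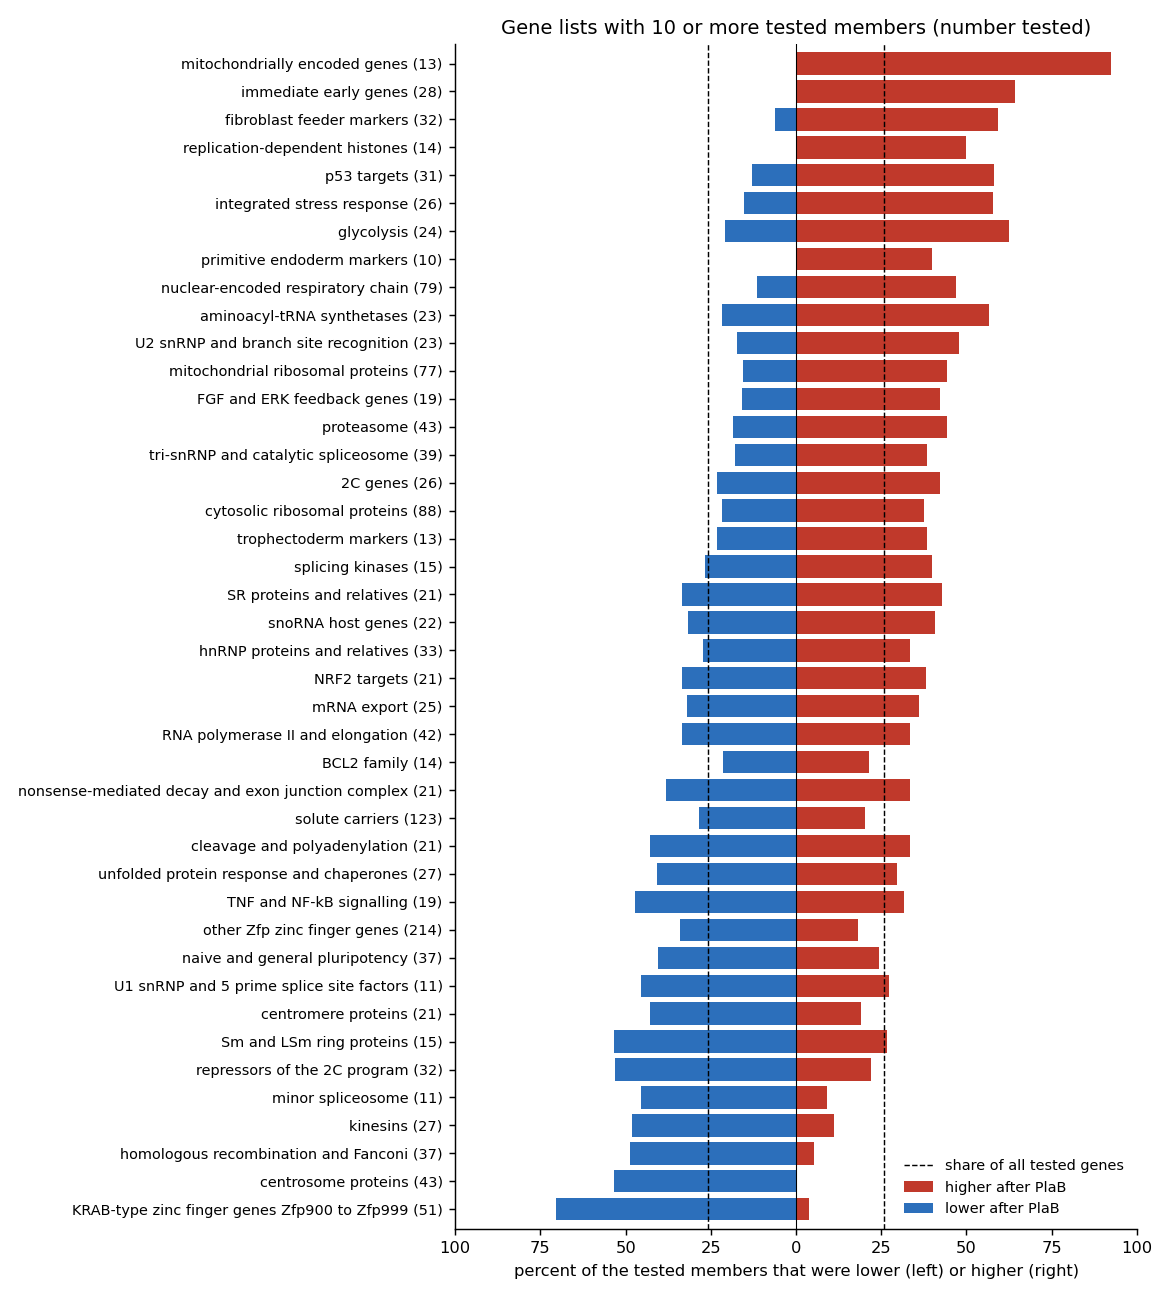
Percent of tested members of each gene list that were lower (blue, left) or higher (red, right) after PlaB, for lists with 10 or more tested members (number tested in brackets); dashed lines mark the shares of all tested genes, 25.8% lower and 25.9% higher. Mitochondrially encoded genes (12 of 13 higher) and the zinc finger genes Zfp900 to Zfp999 (36 of 51 lower) stand at the ends.

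Markers of the feeder cells and of other cell types moved beside these changes. Of 34 fibroblast markers 32 were tested, of which 19 (59.4%) were higher and 2 lower, and 15 and 5 after GC correction. Their summed level was 12157 and 13644 CPM in control and 14075 and 17018 CPM after PlaB, and S100a4 was at 0 in control. Bgn, a matrix proteoglycan gene, stood at 209 and 256 CPM in control and 858 and 1006 CPM after PlaB (2.00 ± 0.13, adjusted p = 1.29e-14), and Timp1 (1.39) and Col1a1 (1.75) rose. Thbs1 stood at 3129 and 3257 CPM in control and 1426 and 2071 CPM after PlaB (-0.87 ± 0.14, adjusted p = 4.71e-06), and Prrx1 fell by 0.69 (GC-corrected -0.32, not called). Of 11 stem cell markers 3 were higher and 4 lower, with a median log2 fold change of -0.09. Their sum, which is set by the most abundant members, was 21451 and 19227 CPM in control and 14387 and 14451 CPM after PlaB. Fewer cells of a type and less RNA per cell cannot be told apart in these libraries, nor can the response of stem cells and that of feeder cells.

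Of 11 macrophage markers 9 were tested and 7 of those were higher, 4 without PlaB replicate 2. Their summed level was low, at 156 and 204 CPM in control and 294 and 512 CPM after PlaB, and C1qa and C1qb were at 0 in control. Cd14 (2.06), Tyrobp (1.85) and Laptm5 (2.02) were higher. Of 10 tested genes of primitive endoderm, of 19 in the list, 4 were higher (2 after GC correction or without control replicate 1), among them Sparc (1.61), which fibroblasts also express. Of 13 tested trophectoderm genes, of 20, 5 were higher and 3 lower, and 3 and 4 after GC correction. Lgals3 (1.96) and Krt8 (2.06) rose, while Cdx2, the defining factor of trophectoderm, was at 0 in all 4 libraries. The part of these cells in the results above was not tested.

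Solute carriers, the membrane transporters, had 25 of 123 tested genes (20.3%) higher and 35 (28.5%) lower, and 14 higher without control replicate 1 or 15 without control replicate 2. Olfactory receptors, which are not at work in these cells, had 4 of 1106 genes tested, of which 2 were higher and 1 lower, and 2 and 0 after GC correction.

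The strand setting of the counting is not given in the sources used here, and the libraries do not mark strand. Of 202 genes considered by name, 81 share part of their span with another annotated gene, and reads in shared exons cannot be told apart. Examples are Srek1ip1 with Cwc27, Thoc1 with Usp14, Bad with Gpr137 and Gapdh with Iffo1.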

How the data were processed

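Counts of reads per gene symbol in the 4 libraries of 2D culture were used as the authors deposited them. The submitters' processing notes name STAR 2.7.10b, HTSeq 0.13.5 and the build mm10, which are known here by name only. The annotation used for counting, and whether strand was used, were not given in the sources used here. Per the labels' protocols, polyadenylated RNA was turned into libraries with Smart-seq2, which has no molecular identifiers, so counting intervals cover counting error only.

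Symbols were matched to GENCODE M21 (GRCm38): 53663 of 54352 matched 1 gene. Genes were kept by filterByExpr (minimum count 10, minimum total 15) and tested with edgeR 4.0.16 (TMM, robust quasi-likelihood F-test, R 4.3.3) over the 2 control and 2 PlaB libraries, with Benjamini-Hochberg adjustment over all 11183 tested genes and a threshold of 0.05. The biological coefficient of variation was 0.127. On simulated data, 46.8% of genes changed by 1 on the log2 scale and 90.5% of those changed by 2 were recovered, with 8 false calls among 10518 unchanged genes. Only 94 and 95 genes were changed in that simulation, and it held no GC trend. In the real comparison 51.7% of genes were called and a GC trend was present, so these rates may not hold there. GC correction subtracted a lowess curve of each gene's deviation against the GC content of its longest transcript.

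Named genes were a fixed set, the 10 largest changes per direction at a mean of 50 CPM or more with no overlap between groups (numbered models and pseudogenes left out), up to 3 per direction of each list at 10 CPM or more, and pairs with an intronless member. The 44 lists and the members were chosen with earlier results of these data known, and the models inside introns were added after the data were seen. Lists are described by counts and medians, without a test. Alternatives were other scalings, no or a stricter filter, thinning, GC correction, a replicate block, each library left out, DESeq2 1.42.0 and limma-voom 3.58.1.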

Additional observations from a re-analysis of the deposited data

How the results depend on the processing

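The number of genes higher after PlaB ranged from 2157 (DESeq2) to 2954 (limma-voom) over other tools, scalings and filters, and the number lower from 2062 to 3057. With the demand for a log2 fold change of at least 1, 2005 were higher and 1730 lower. Leaving out 1 library gave 2044 to 2615 higher and 2133 to 2618 lower genes; the lone library of a group was then assumed to vary like the other group. Same-numbered libraries did not deviate together (correlation -0.02 over 11183 genes). With so few libraries, this value cannot tell whether same-numbered libraries shared a culture or day. A replicate block gave 2818 higher and 2836 lower genes, and 97.0% of the 5784 calls were kept. GC correction kept 70.4% of the calls.

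The median log2 fold change of intronless genes minus that of genes with 10 or more introns was 0.56. It was 0.41 within the middle tercile of GC content, 0.45 without a filter, 0.67 when intron number was taken over all transcripts, and 0.46 to 0.71 when each library was left out. The median of models inside introns was 0.89, and 1.37 after GC correction, 0.065 without a filter and 0.39 to 1.06 when each library was left out (0.39 without PlaB replicate 2). The cause of these shifts was not tested. Of 202 named genes, 181 kept direction and call in all 11 alternatives run for them. Many of them were chosen for large changes or small p-values in these same data, so this count does not describe genes in general. Of all 5784 calls, DESeq2 kept 72.9%. Directions turned after GC correction, without and with a replicate block, for Clk1 (0.026 and 0.025), Pcbp1 (-0.058 and -0.058), Bax (-0.20 and -0.19), Klf4 (-0.48 and -0.45) and Zscan4d (0.18 and 0.20), and for Zscan4d also without control replicate 1 (0.067, in a range of -0.56 to 0.067 over left-out libraries). Depth limits calls in genes of low level: of 54352 symbols, 11183 passed the filter.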
